A study of Homo sapiens with 21 samples.

Results

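Eph receptors were followed at the RNA level in 7 parental cancer cell lines and the 10 drug-resistant cell lines derived from them. The 10 genes described are EPHA1, EPHA2, EPHA4, EPHA5, EPHA7, EPHB1, EPHB2, EPHB3, EPHB4 and EPHB6, out of 14 Eph receptor genes and 53515 genes in the count files. They were selected on their measured levels and changes in these same libraries, so these values are given as a description and carry no test. Tests were run only on the ephrin ligands and on genes of Eph signaling, which the rule that chose the receptors did not use, although these lists too were drawn up with earlier results of these data known.

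RNA was sequenced in 21 libraries from 17 human cell lines. Each resistant line was selected from its parental line under rising doses of its drug. From the liver cancer line HepG2 (2 libraries) came HepG2S1 (1 library) and HepG2S3 (2 libraries), resistant to the kinase inhibitor sorafenib. From the pancreatic cancer line PancVB came PancB1Q and PancB1V, resistant to the antimetabolite 5-fluorouracil. From the lung adenocarcinoma line HCC4006, held as the stocks HCC4006P1 (2 libraries) and HCC4006P2, came HCC4006ER (2 libraries), resistant to the EGFR inhibitor erlotinib, and HCC4006GR, resistant to the EGFR inhibitor gefitinib. From the lung line HCC827P came gefitinib-resistant HCC827GR, from the ovarian line UWB1.289 came U10 and U100, resistant to the PARP inhibitor olaparib, and from the ovarian line IGROV-1 came IGROV-1/CDDP, resistant to the DNA crosslinker cisplatin. Lines with no number given have 1 library. The labels do not say whether libraries of the same line came from separate cultures, so the p-values below measure only the spread between these libraries. HepG2S1 and HepG2S3 share the HepG2 libraries, and PancB1Q with PancB1V and U10 with U100 likewise share a parental library. The study describes the resistant lines other than U10, U100 and IGROV-1/CDDP as having undergone a full epithelial-to-mesenchymal transition and these 3 as partial.

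Eph receptors are the largest family of receptor tyrosine kinases. They bind ephrins, which are themselves fixed to the surface of a neighboring cell, so that signaling starts at cell contacts. A class receptors mostly bind the lipid-anchored ephrin-A ligands and B class receptors the transmembrane ephrin-B ligands, with EPHA4 binding both and EPHB4 mainly ephrin-B2. The receptor signals forward through its kinase and the ephrin signals in reverse into its own cell. In epithelia they help to keep cell populations apart and they steer migrating cells and axons. EPHB6 lacks kinase activity, as does EPHA10.

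The transcriptional repressors of the SNAI and ZEB families, known from epithelial-to-mesenchymal transition, bind the letters CAGGTG or their reverse complement CACCTG. The start regions of 4 receptors are shown, among them every one of the 10 described that held these letters. EPHB1 (2-fold higher in 4 pairs, lower in 2) and EPHA4 (higher in 4) also changed in several pairs. Both held 0 matches and are not shown. The sequences are the 250 bases before the annotated start in RefSeq on GRCh38.p14, written 5′ to 3′ along the gene, and capitals mark either form of the motif. Coordinates elsewhere are on GRCh37, the build of the count files.
EPHA1, chr7:143408857-143409106, minus strand: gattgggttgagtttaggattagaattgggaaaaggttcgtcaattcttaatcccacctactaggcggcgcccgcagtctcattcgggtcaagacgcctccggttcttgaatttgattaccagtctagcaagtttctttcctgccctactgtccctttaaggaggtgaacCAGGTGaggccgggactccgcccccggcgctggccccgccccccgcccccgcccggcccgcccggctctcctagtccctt
EPHA7, chr6:93417161-93417410, minus strand: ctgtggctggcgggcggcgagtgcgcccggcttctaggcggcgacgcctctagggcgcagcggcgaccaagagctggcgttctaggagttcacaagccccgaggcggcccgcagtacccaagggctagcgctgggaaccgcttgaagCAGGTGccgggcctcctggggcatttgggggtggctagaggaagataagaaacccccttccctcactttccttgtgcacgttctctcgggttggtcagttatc
EPHB2, chr1:22710588-22710837, plus strand: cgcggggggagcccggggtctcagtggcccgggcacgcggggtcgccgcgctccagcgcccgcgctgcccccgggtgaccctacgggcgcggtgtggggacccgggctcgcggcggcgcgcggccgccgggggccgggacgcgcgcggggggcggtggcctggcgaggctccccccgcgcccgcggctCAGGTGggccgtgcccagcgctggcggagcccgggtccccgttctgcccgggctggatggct
EPHB3, chr3:184561535-184561784, plus strand: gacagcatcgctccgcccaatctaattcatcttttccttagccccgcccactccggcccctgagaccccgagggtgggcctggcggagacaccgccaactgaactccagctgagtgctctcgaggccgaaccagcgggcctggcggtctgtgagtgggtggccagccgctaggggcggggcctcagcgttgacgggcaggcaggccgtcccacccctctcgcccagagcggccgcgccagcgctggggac
The EPHA1 window held 1 match, which begins 80 bases before the start. The EPHB2 window held 1 match, 62 bases before the start, and it sat in the most CG-rich of the 4 windows, with 42 CG pairs against a median of 11 in all promoters. EPHA7 has 3 annotated starts, of which only the one shown held a match, 103 bases before it. The EPHB3 window held 0 matches. Of 35116 RefSeq promoters of the same length, 17.5% held the motif in either orientation. RefSeq windows were found for 13 of the 14 Eph receptor genes, and among the 10 genes described here the other 7, including EPHB3, held 0 matches in any window.

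Counts on genes ran from 9851195 to 36639473 per library (median 19498932). Levels are given as CPM, the counts on a gene per 1e6 counts on all genes of the library, and the smallest detected number, taken as 3 counts in a library, corresponds to 0.0819 CPM in the deepest and 0.305 CPM in the shallowest. In replicate 1 of HCC4006P1 the counts end in chromosome 7 at GARS1, so that 8694 genes that hold 18.1% of the counts of replicate 2 have almost none. EPHA1, EPHB4 and EPHB6 lie in this stretch, as does the ligand gene EFNB1, and their level in HCC4006P1 is that of replicate 2 alone. For the remaining genes the loss raises the CPM of replicate 1 by 22.1%. The tissue markers matched the labels in part. All 4 liver markers were above 1 CPM in HepG2, with a summed level of 21600 CPM, against 0 counts in HepG2S1, which allows up to 0.305 CPM for each marker, and 15.2 CPM in HepG2S3. The lung markers NKX2-1, NAPSA and SFTPB summed to 266 CPM in HCC4006P2 and 21.2 CPM in HCC4006GR, but to 0.423 CPM in HCC4006P1 and 0.535 CPM in HCC4006ER, although HCC4006P1 and HCC4006P2 carry the name of the same line. Of the pancreas markers, PDX1 was at 0.184 CPM and MUC1 at 3.73 CPM in PancVB, whereas MUC1 reached 319 CPM in HCC4006P1 and 122 CPM in HepG2S1. The 3 ovary markers summed to 461 CPM in UWB1.289 and 665 CPM in IGROV-1, but also to 642 CPM in the lung line HCC827P. Of these, PAX8 was at 357 CPM in UWB1.289 and 664 CPM in IGROV-1, MUC16 at 103 CPM in UWB1.289, 0.473 CPM in IGROV-1 and 618 CPM in HCC827P, and WT1 at 0.172 CPM in UWB1.289 and at 0 counts in IGROV-1. The part of these differences in the receptor values was not tested. In such bulk libraries, a lower share of cells that express a gene and less RNA per cell cannot be told apart.

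Among the receptors, EPHA2 and EPHB4 were above 1 CPM in every line and EPHB2 in all lines but HepG2, where its mean was 0.783 CPM. The other members were above 1 CPM in some lines only. EPHA2 was above 1 CPM in 17 of 17 lines, EPHB4 in 17, EPHB2 in 16, EPHA1 and EPHB3 in 10 each, EPHA4 in 9, EPHB6 in 7, EPHB1 in 6, EPHA7 in 4 and EPHA5 in 3. To compare levels between genes, CPM were divided by the length of each gene's exons in kilobases. This length joins all annotated exons of a gene, 12516 bases for EPHB2 and 4141 bases for EPHA2, whichever transcripts a line uses. On this per-length scale EPHA2 held the largest share of the 14 receptors in 15 of the 17 lines, from 44.7% in HCC4006GR to 74.9% in PancVB. The exceptions were the pair of IGROV-1 lines, where EPHB4 led in IGROV-1 with 46.7% and EPHA7 led in IGROV-1/CDDP with 53.6%. The order depends on the division by length. In CPM, EPHB2 exceeded EPHA2 in HCC4006GR (396 against 219), HCC827P (116 against 80.2) and HCC827GR (100 against 99.2). In HepG2 the share of EPHA2 was 70.5% and that of EPHB4 24.5%, which left little for the rest of the family.

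**Figure D1:**
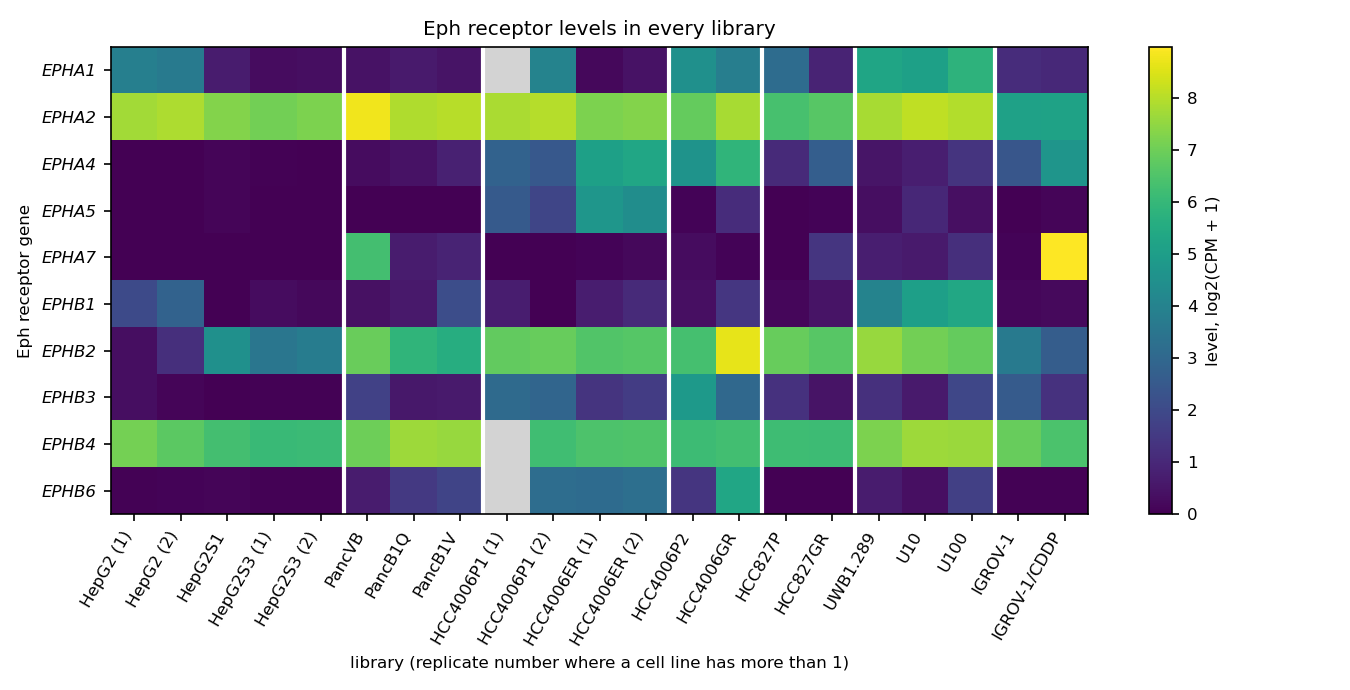
Level of each of the 10 Eph receptors (rows) in each of the 21 libraries (columns), as log2(CPM + 1) on a color scale, with white lines between families of a parental line and grey where HCC4006P1 replicate 1 has no counts. EPHA2 and EPHB4 are bright across all columns, while EPHA7 is bright only in PancVB and IGROV-1/CDDP.

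Changes of each resistant line against its parental line were taken as log2 fold changes of CPM + 1, which understates the change of low genes. A receptor was counted as changed 2-fold where this value was at or past 1 in either direction, among receptors with at least 1 CPM in either line of the pair. In a pair where only 1 of the lines reached 1 CPM, this requirement fixed the direction of the change. Of 100 combinations of receptor and pair, 69 had at least 1 CPM. On this scale 18 of them were higher by 2-fold or more in the resistant line, 16 were lower and 35 lay within 2-fold. Some of these 35 were past 2-fold without the added 1 CPM, such as EPHA4 in U100 (3.55-fold higher) and EPHB3 in HCC827GR (3.74-fold lower). Since the members were selected on these changes, nothing is read from the counts, which stand beside the share of all genes past the same threshold. In HepG2S1, 1 receptor was higher and 2 were lower of 5 with a level, where 44.3% of all genes passed the threshold. HepG2S3 gave the same counts against a background of 45.6%. In PancB1Q, 0 were higher and 3 lower of 6 (background 15.5%), and in PancB1V 2 were higher and 3 lower of 7 (background 16.3%). In HCC4006ER, 2 were higher and 2 lower of 8 (background 23.7%). HCC4006GR had 5 higher and 1 lower of 9 (background 15.6%), and HCC827GR 2 higher and 1 lower of 7 (background 18.5%). In U10, 1 was higher and 0 lower of 6 (background 11.6%), and in U100 2 were higher and 0 lower of 9 (background 8.40%). IGROV-1/CDDP had 2 higher and 2 lower of 7 (background 13.0%). Just inside the threshold lay EPHB6 in U100 at 1.00, EPHB2 in IGROV-1/CDDP at -1.01 and EPHB1 in U10 at 1.03. Just outside lay EPHA2 in HCC4006GR at 0.93, EPHA2 in PancB1Q at -0.89 and EPHB6 in PancB1Q at 0.82. The median change over all genes with a level was 0.24 in HepG2S1 and 0.29 in HepG2S3 and lay between -0.11 and 0.07 in the other lines, so that the values of the sorafenib-resistant lines are to be read against this shift.

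**Figure D2:**
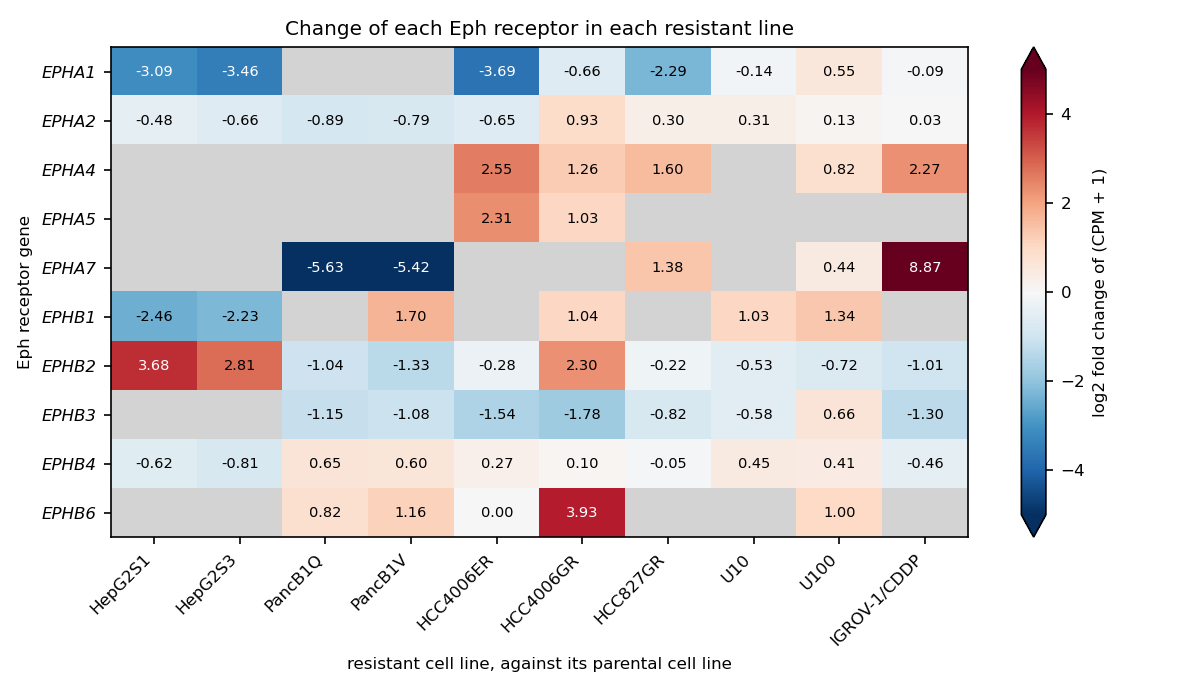
Log2 fold change of CPM + 1 of each Eph receptor (rows) in each resistant line against its parental line (columns), with grey where neither line reached 1 CPM and the color scale ending at 5 in both directions. EPHA7 runs from -5.63 in PancB1Q to 8.87 in IGROV-1/CDDP, while EPHA2 and EPHB4 stay within 2-fold in all 10 columns.

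EPHA7 (chr6:93949738-94129405, minus strand), a receptor best known from the developing nervous system, had the largest changes, in opposite directions in different lines. In PancVB it stood at 77.7 CPM (1689 counts). In PancB1Q it was at 0.595 CPM (17 counts) and in PancB1V at 0.846 CPM (21 counts). This was a 131-fold and a 91.9-fold lower level, with log2 fold changes of -5.63 (95% counting interval -5.85 to -5.33) and -5.42 (-5.67 to -5.09). In IGROV-1 it had 2 counts, or 0.0728 CPM, and in IGROV-1/CDDP 12662 counts, or 501 CPM. The ratio of these levels was 6880, with a counting interval of 1910 to 56800 that is wide because of the 2 counts in the parental library. On the log2 scale the change was 8.87. HCC827P had 0 counts, which allows up to 0.173 CPM, and HCC827GR 25 counts, so that the level was at least 9.29-fold higher against a floor of 3 counts. In the 5 HepG2, HepG2S1 and HepG2S3 libraries and both HCC4006P1 libraries EPHA7 had 0 counts. Apart from PancVB and IGROV-1/CDDP no line exceeded 1.61 CPM. These pairs have 1 library on each side, so the values have no replicate check.

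EPHA1 (chr7:143087382-143105949, minus strand), a receptor found mainly in epithelial cells, was lower by 2-fold or more in 4 of the 8 pairs with a level and higher in 0. HepG2 had 13.5 and 11.9 CPM, HepG2S1 had 0.609 CPM, and HepG2S3 had 0.219 and 0.261 CPM. The level was 20.8-fold lower in HepG2S1 and 52.8-fold lower in HepG2S3. HCC4006P1 had 15.2 CPM in its usable library, and HCC4006ER 0.152 and 0.360 CPM, a 59.4-fold lower level. The log2 fold change there was -3.69 (counting interval -3.90 to -3.41). HCC827P had 7.96 CPM and HCC827GR 0.836 CPM, or 9.52-fold less. In HCC4006P2 and HCC4006GR, by contrast, it was at 21.5 and 13.2 CPM, a log2 fold change of -0.66 (-0.91 to -0.42). The highest levels were in the ovarian family, with 37.3 CPM in UWB1.289, 33.6 CPM in U10 and 54.9 CPM in U100. The interval of the change in U10, -0.34 to 0.05, includes 0, and that in U100, 0.38 to 0.72, does not. PancVB, PancB1Q and PancB1V were all below 1 CPM, while IGROV-1 had 1.20 CPM and its derivative 1.07 CPM.

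EPHA4 (chr2:222282747-222438922, minus strand), which binds ephrins of both classes, was higher by 2-fold or more in 4 of the 5 pairs with a level. HCC4006P1 had 6.09 and 4.56 CPM and HCC4006ER 33.6 and 38.6 CPM. The log2 fold change was 2.55 ± 0.23 (SD over the 4 pairings of these libraries). HCC4006P2 had 23.1 CPM and HCC4006GR 56.9 CPM, the highest level of the 17 lines. HCC827P had 1.10 CPM (19 counts) and HCC827GR 5.34 CPM (83 counts), a log2 fold change of 1.60 (1.15 to 2.00). From IGROV-1 to IGROV-1/CDDP it went from 4.26 to 24.3 CPM, 5.71-fold more. In UWB1.289 and U100 the level was 0.430 and 1.53 CPM, a log2 fold change of 0.82 with an interval of 0.22 to 1.31 on 5 and 20 counts. Only U100 reached 1 CPM in that pair, so the required level fixed the direction of this change. HepG2 had 0 counts in both libraries, and the HepG2-derived and pancreatic lines stayed under 1 CPM. EPHA4 was thus above 1 CPM in the lung and IGROV-1 lines and U100, and under 1 CPM in the liver and pancreatic lines, UWB1.289 and U10.

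EPHA5 (chr4:66185281-66536213, minus strand), another receptor of the nervous system, reached 5 CPM only in HCC4006ER. HCC4006P1 had 4.86 and 2.67 CPM and HCC4006ER 25.3 and 20.1 CPM, a log2 fold change of 2.31 ± 0.43 (SD over 4 pairings). The second HCC4006 pair rose from 1 count (0.0735 CPM) to 18 counts (1.19 CPM), a ratio of 16.2 with a counting interval of 2.56 to 676. In 7 of the 17 lines EPHA5 had 0 counts. EPHA5, EPHA1 and EPHA2 each overlap an annotated antisense gene, and because the strand setting of the counting is not stated, reads of the partners cannot be told apart. The antisense genes themselves had at most 44, 33 and 38 counts per library.

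EPHA2 (chr1:16450832-16482564, minus strand), the main A class receptor of epithelial and cancer cells, stayed within 2-fold in 10 of 10 pairs. It was lower in HepG2S1 (159 CPM) and HepG2S3 (133 and 147 CPM) than in HepG2 (209 and 234 CPM). PancVB had the highest level of all lines, 441 CPM, against 237 CPM in PancB1Q and 255 CPM in PancB1V, with log2 fold changes of -0.89 and -0.79. HCC4006P1 had 228 and 249 CPM and HCC4006ER 147 and 156 CPM. HCC4006GR differed in direction, at 219 CPM against 115 CPM in HCC4006P2, a log2 fold change of 0.93 (0.84 to 1.01). The olaparib-resistant lines and HCC827GR were higher than their parents by log2 values between 0.13 and 0.31. In IGROV-1 and IGROV-1/CDDP, EPHA2 stood at 34.5 and 35.2 CPM, the lowest of the lines, with an interval for the change of -0.10 to 0.16.

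**Figure D3:**
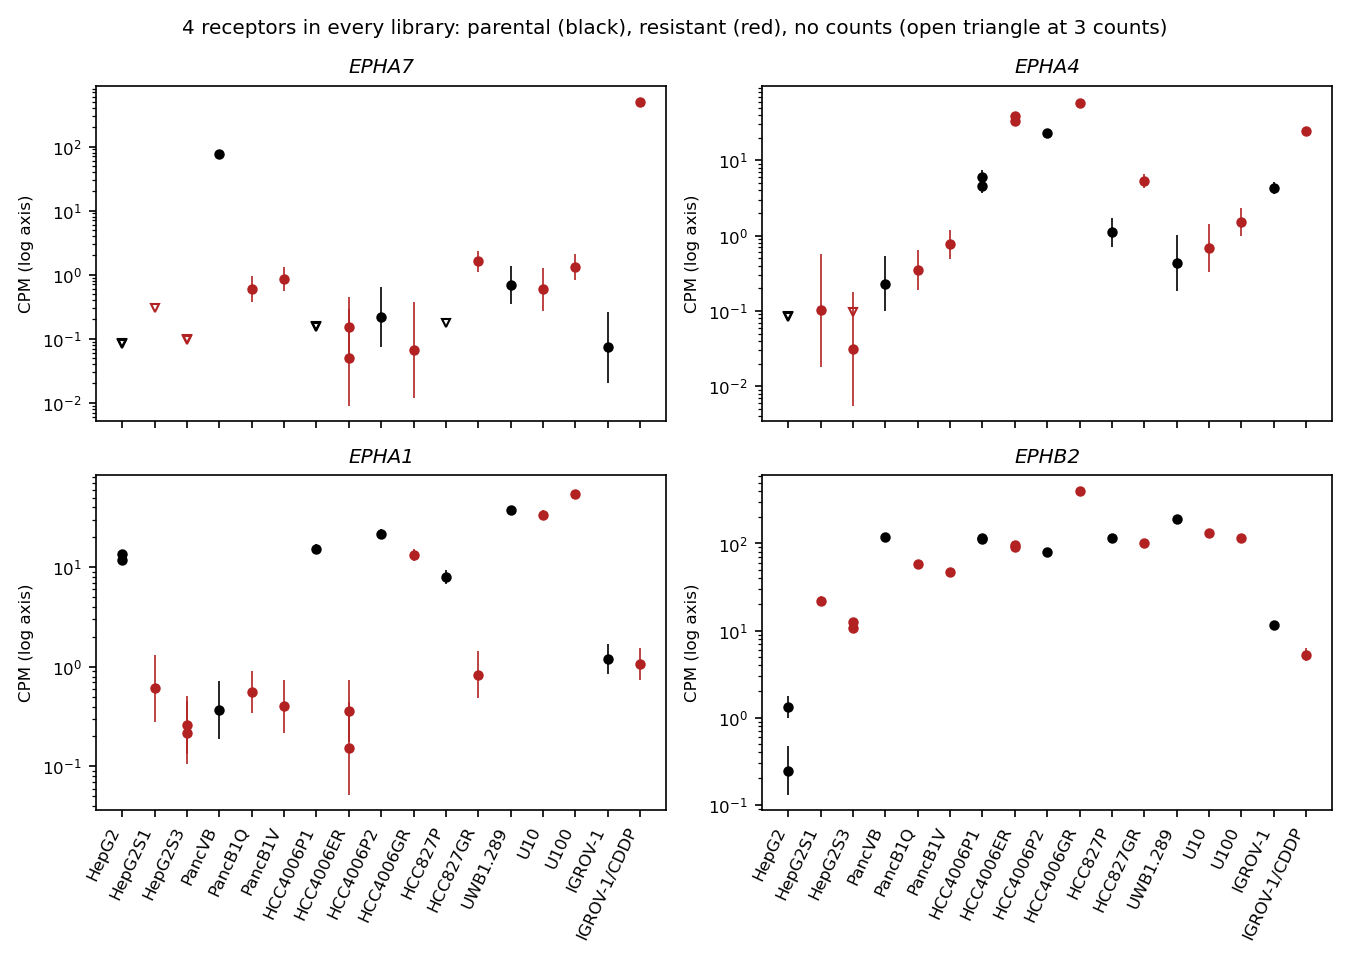
CPM of EPHA7, EPHA4, EPHA1 and EPHB2 in every library on a log axis, with parental libraries in black, resistant libraries in red, 95% Wilson counting intervals as bars, and open triangles at the 3-count floor where a library had 0 counts. EPHA1 drops from 15.2 CPM in HCC4006P1 to 0.152 and 0.360 CPM in HCC4006ER, while EPHA4 rises from 6.09 and 4.56 CPM to 33.6 and 38.6 CPM.

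EPHB4 (chr7:100400187-100425145, minus strand), the receptor of ephrin-B2 known from vessel formation, also stayed within 2-fold in 10 of 10 pairs. Its level ran from 67.5 CPM in HepG2S3 to 202 CPM in U10. The pancreatic and liver lines moved in opposite directions. EPHB4 was at 199 CPM in PancB1Q and 192 CPM in PancB1V against 127 CPM in PancVB, log2 fold changes of 0.65 and 0.60. It was at 77.5 CPM in HepG2S1 and 67.2 and 67.8 CPM in HepG2S3 against 135 and 104 CPM in HepG2, log2 fold changes of -0.62 and -0.81. With library sizes scaled by TMM, the fall in HepG2S3 became -1.11, past the 2-fold threshold. In the lung lines the level was 70.1 to 90.3 CPM in every library with counts.

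EPHB2 (chr1:23037332-23247993, plus strand), which positions cells along the intestinal crypt, was higher by 2-fold or more in 3 pairs and lower in 3. HepG2 had 0.246 and 1.32 CPM, HepG2S1 21.8 CPM and HepG2S3 10.6 and 12.5 CPM. The level was 27.9-fold higher in HepG2S1 and 14.7-fold higher in HepG2S3. On the log2 scale these changes were 3.68 and 2.81. The HepG2 libraries themselves differed, with 9 and 46 counts. HCC4006GR reached 396 CPM against 79.4 CPM in HCC4006P2, 4.99-fold more. HCC4006ER, from the other stock, had 91.5 and 95.5 CPM against 112 and 116 CPM, a log2 fold change of -0.28 ± 0.04 (SD over 4 pairings). The 112 CPM is that of HCC4006P1 replicate 1, which the missing counts raise by 22.1%. Neither this small change nor its SD is corrected for that. PancB1Q had 57.5 CPM and PancB1V 46.7 CPM against 119 CPM in PancVB. IGROV-1/CDDP had 5.30 CPM against 11.7 CPM in IGROV-1. With TMM library sizes, 2 of the 3 falls, in PancB1Q and IGROV-1/CDDP, came to -0.83 and -0.95 and no longer reached 2-fold. UWB1.289 had 190 CPM, U10 131 CPM and U100 115 CPM.

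EPHB3 (chr3:184279573-184300196, plus strand), which acts with EPHB2 in intestinal epithelium, was lower by 2-fold or more in 5 of the 8 pairs with a level. HCC4006P2 had the highest level, 26.9 CPM, and HCC4006GR had 7.15 CPM, a 3.76-fold lower level. HCC4006P1 had 7.53 and 6.62 CPM and HCC4006ER 1.57 and 2.00 CPM, a log2 fold change of -1.54 ± 0.16 (SD over 4 pairings). It went from 4.95 to 1.42 CPM between IGROV-1 and IGROV-1/CDDP. PancVB had 2.30 CPM (50 counts) against 14 counts in each of PancB1Q and PancB1V. U100 differed in direction, with 36 counts against 16 in UWB1.289 and a log2 fold change of 0.66 (0.10 to 1.17). In the liver lines the level was at most 0.273 CPM. In HCC4006GR, EPHB2 and EPHB3 therefore moved in opposite directions, by 2.30 and -1.78 on the log2 scale.

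EPHB1 (chr3:134514102-134979309, plus strand), a guidance receptor of the optic pathway, was highest in the ovarian UWB1.289 family. UWB1.289 had 15.3 CPM, U10 32.4 CPM and U100 40.3 CPM, log2 fold changes of 1.03 (0.78 to 1.28) and 1.34 (1.11 to 1.57) against the same parental library. HepG2 had 3.0 and 6.03 CPM, HepG2S3 had 0.219 and 0.131 CPM, and HepG2S1 had 0 counts. The level was 25.9-fold lower in HepG2S3 and at least 14.8-fold lower in HepG2S1, taken against the floor of 3 counts. PancB1V had 3.30 CPM (82 counts) against 0.322 CPM in PancVB and 0.525 CPM in PancB1Q. HCC4006GR had 25 counts against 4 in HCC4006P2. EPHB1 was under 1 CPM in 11 of the 17 lines.

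EPHB6 (chr7:142552823-142568847, plus strand), the member without kinase activity, was highest in HCC4006GR. It had 38.9 CPM there (587 counts) against 1.62 CPM (22 counts) in HCC4006P2, a ratio of 24.0 with a counting interval of 15.7 to 38.7. In the other HCC4006 stock it did not differ beyond counting error, with 8.31 CPM in the usable HCC4006P1 library and 7.84 and 8.73 CPM in HCC4006ER. The log2 fold change was 0.00 with an interval of -0.25 to 0.24. PancB1Q had 1.82 CPM and PancB1V 2.58 CPM against 0.598 CPM in PancVB. U100 had 29 counts against 7 in UWB1.289. HCC827P and HCC827GR both had 0 counts, which allows up to 0.173 and 0.193 CPM.

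Of the 4 remaining Eph receptors, EPHA3 showed the only large loss. It was at 62.4 CPM (1714 counts) in IGROV-1, where it held 24.2% of the family on the per-length scale, and at 0.158 CPM (4 counts) in IGROV-1/CDDP, a 394-fold lower level. IGROV-1/CDDP thus had lost the EPHA3 reads of its parent and held the highest EPHA7 level of the 17 lines. In HCC4006 lines EPHA3 lay between 2.92 and 8.52 CPM. EPHA10, the other kinase-dead receptor, was above 1 CPM in 17 of 17 lines with at most 11.5 CPM, in HCC4006GR. EPHA6 did not exceed 2.93 CPM in any library, and EPHA8 was under 1 CPM in 17 lines.

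Levels were ordered over the 17 lines for each receptor, and neighbors were compared by their 95% counting intervals. For EPHB2 the intervals overlapped in 5 of 16 neighboring pairs, for EPHA2 in 7, for EPHA1 in 11, for EPHA4 and EPHB1 in 12 each, for EPHB3 and EPHB4 in 13 each and for EPHA5, EPHA7 and EPHB6 in 14 each. The highest and lowest line of each order were apart from each other. The middle and lower part of the order of the low receptors was not resolved at this depth. EPHA5 had 0 counts in 7 lines and EPHA7 in 5. Of 12584 genes searched, the gene whose log2(CPM + 1) over the 17 lines was most like that of EPHA1 was CXCL16, with Pearson r of 0.96 and a Spearman coefficient of 0.91. For EPHA2 it was THBS1 (r = 0.89), for EPHA4 SLC22A17 (r = 0.94), for EPHA5 CLIC3 (r = 0.92) and for EPHA7 XYLT2 (r = 0.85, but a Spearman coefficient of 0.34). For EPHB1 it was DLX2 (r = 0.94), for EPHB2 OCIAD2 (r = 0.92), for EPHB3 RHBDF1 (r = 0.89), for EPHB4 CDH5 (r = 0.93) and for EPHB6 APCDD1L (r = 0.91). These correlations describe 17 lines of which several share a parent and all differ in depth, and each is the highest of all genes searched.

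The ligands were tested with edgeR in the 2 pairs that have 2 libraries on each side. Between HepG2 and HepG2S3, 7 of the 8 ephrin genes could be tested and 5 were called, 3 higher and 2 lower, where 63.5% of all genes tested were called. EFNB2, the ligand of EPHB4, had 0.409 and 0.373 CPM in HepG2 and 70.0 and 70.2 CPM in HepG2S3, 179-fold more. Its log2 fold change was 7.16 ± 0.19 (SE, edgeR adjusted p = 2.9e-05). HepG2S1 had 56.3 CPM. EFNA5 had 0 counts in both HepG2 libraries and 19.5 and 18.7 CPM in HepG2S3, at least 228-fold more against 3 counts per library (edgeR adjusted p = 1.4e-04). EFNA3 rose from 0.928 and 0.775 CPM to 5.09 and 5.29 CPM (log2 fold change 2.29 ± 0.27 SE, edgeR adjusted p = 0.00122). EFNA1, the main ephrin-A ligand of EPHA2, fell from 118 and 109 CPM to 28.4 and 28.9 CPM (log2 fold change -2.30 ± 0.13 SE, edgeR adjusted p = 1.3e-04). EFNA2 fell from 6.36 and 5.11 CPM to 0.0312 and 0.163 CPM (edgeR adjusted p = 4.9e-04). EFNA4 and EFNB1 did not pass the test, with log2 fold changes of 0.20 ± 0.22 and -0.10 ± 0.17 (SE). The parental and resistant libraries did not overlap for any of the 5 called ligands, which largely follows from the call itself and adds no support. EFNA3 and EFNA4 overlap an annotated read-through gene, and the assignment of their reads is uncertain.

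Between HCC4006P1 and HCC4006ER, 6 ephrin genes could be tested and 3 were called, all 3 lower, where 49.0% of all genes tested were called. EFNA3 fell from 5.08 and 4.00 CPM to 1.21 and 1.13 CPM (log2 fold change -1.89 ± 0.25 SE, edgeR adjusted p = 0.00129). EFNA5 fell from 33.1 and 19.0 CPM to 10.1 and 9.96 CPM (-1.29 ± 0.19 SE, edgeR adjusted p = 0.00213). EFNB2 fell from 43.8 and 37.2 CPM to 22.8 and 22.0 CPM (-0.80 ± 0.13 SE, edgeR adjusted p = 0.00335). EFNA1, EFNA4 and EFNB3 did not pass, with log2 fold changes of 0.29, -0.36 and 0.85 and edgeR adjusted p of 0.343, 0.141 and 0.072. EFNB3 was called higher in other fits, among them DESeq2 (adjusted p = 0.0303), edgeR without the filter on low counts (adjusted p = 0.0163) and edgeR with the replicate number as a block (adjusted p = 2.14e-05), and also without HCC4006P1 replicate 1, HCC4006P1 replicate 2 or HCC4006ER replicate 2 (log2 fold changes of 1.48, 0.42 and 0.95). EFNA1 was called higher without HCC4006P1 replicate 1 (0.65). EFNB1, untested because of the missing counts, had 6.10 CPM in the usable parental library and 17 and 15.9 CPM in HCC4006ER. The 3 ligands that rose in HepG2S3 fell in HCC4006ER.

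The difference between these changes was tested in 1 fit of the 8 libraries, chosen after the data were seen, in which 55.9% of all genes were called. The change in HCC4006ER minus that in HepG2S3 was -7.99 ± 0.24 (SE) for EFNB2 (edgeR adjusted p = 6.1e-08), -4.21 ± 0.36 for EFNA3 (edgeR adjusted p = 1.8e-05) and 2.56 ± 0.29 for EFNA1 (edgeR adjusted p = 9.3e-05). For EFNA5 the difference also passed (edgeR adjusted p = 8.5e-07), but its size cannot be given since HepG2 had 0 counts. EFNA2 and EFNB3 passed with differences of 6.36 ± 0.85 (edgeR adjusted p = 2.6e-04) and 4.83 ± 1.09 (edgeR adjusted p = 0.00499), opposite in sign to that of EFNB2. Each was too low to be tested in the fit of 1 of the pairs alone. Their sizes are uncertain, since they rest on few counts. EFNA2 had 6 counts over both HepG2S3 libraries, and EFNB3 had 12 and 7 counts in HepG2 against 0 and 1 in HepG2S3. For EFNA4 the difference was -0.59 ± 0.28 and did not pass (edgeR adjusted p = 0.0993).

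**Figure D4:**
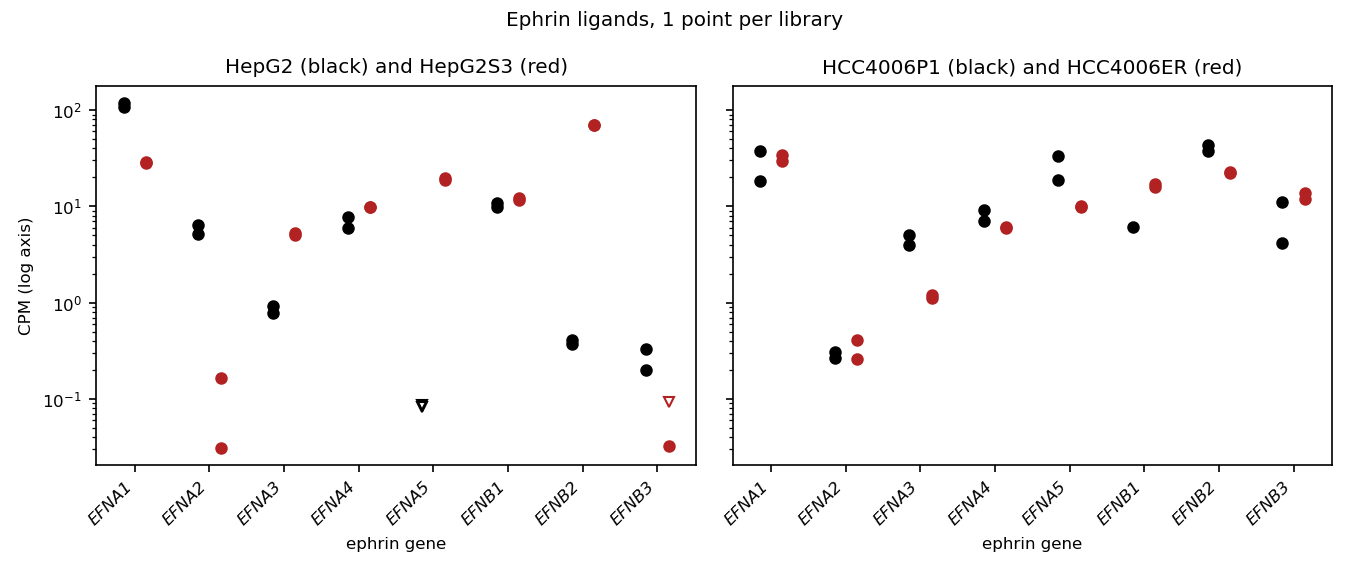
CPM of the 8 ephrin ligands on a log axis in each library of HepG2 and HepG2S3 (left) and of HCC4006P1 and HCC4006ER (right), parental in black and resistant in red, with open triangles at the 3-count floor for 0 counts. EFNB2 goes from 0.409 and 0.373 CPM to 70.0 and 70.2 CPM on the left and from 43.8 and 37.2 CPM to 22.8 and 22.0 CPM on the right.

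In the other pairs, with 1 library on each side, the ligand values are a description. EFNB2 had 1 count in IGROV-1 and 121 counts (4.79 CPM) in IGROV-1/CDDP, and it was at 94.3 CPM in HCC827P and 23.2 CPM in HCC827GR. HCC4006P2 had 16.2 CPM of EFNB2 and HCC4006GR 38.1 CPM, the opposite order to that of HCC4006P1 and HCC4006ER. EFNA5 stood at 24.9 CPM in PancVB, 7.53 CPM in PancB1Q and 8.78 CPM in PancB1V, and it was higher in IGROV-1/CDDP (76.9 CPM) than in IGROV-1 (31.6 CPM). EFNB1 was higher in both olaparib-resistant lines, at 66.9 CPM in U10 and 59.0 CPM in U100 against 20.4 CPM in UWB1.289. EFNA1 was at 8.06 CPM in PancVB, 14.4 CPM in PancB1Q and 41.2 CPM in PancB1V. EFNB3 had 5 counts in PancVB and 124 counts in PancB1V. Over the 7 parental lines, with resistant lines summed per parent, 0 of 8 ephrin genes and 0% of the 15847 genes tested with edgeR were called. At an unadjusted p under 0.05, 722 of all genes passed, and DESeq2 called 106 genes but again 0 ephrins. EFNB1 had the smallest p among the ephrins, with a log2 fold change of 0.65 ± 0.25 (SE, edgeR adjusted p = 0.984).

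Genes that relay Eph and ephrin signals were tested in the same fits. Of 21 forward effectors, which act downstream of the receptor, 19 could be tested in HepG2S3, where 5 rose and 9 fell, beside 63.5% of all genes called, with a median log2 fold change of -0.40. In HCC4006ER, 17 could be tested, where 8 rose and 4 fell, beside 49.0% of all genes called, with a median of 0.42. Medians over all genes tested were -0.01 and 0.01. Of 7 genes of reverse signaling and receptor cleavage, 1 rose and 5 fell of 7 tested in HepG2S3, and 1 rose and 2 fell of 4 tested in HCC4006ER. Without HepG2S3 replicate 1 or 2, the 9 genes called higher over all lists in HepG2S3, ephrins included, became 5 and 4. Over the 7 parental lines, 0 of the 20 tested forward effectors and 0 of the 6 others were called.

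SRC, the kinase that relays forward and reverse signals, fell from 184 and 244 CPM in HepG2 to 6.34 and 6.49 CPM in HepG2S3 (log2 fold change -5.37 ± 0.20 SE, edgeR adjusted p = 4.9e-05). In HCC4006ER it was at 30.0 and 31.1 CPM against 30.5 and 25.9 CPM and did not pass (edgeR adjusted p = 0.349). KALRN, a guanine nucleotide exchange factor, fell in HepG2S3 from 40.4 and 21.9 CPM to 1.09 and 1.34 CPM and rose in HCC4006ER from 4.33 and 5.33 CPM to 36.7 and 32.0 CPM. The difference between these KALRN changes was 7.81 ± 0.49 (SE, edgeR adjusted p = 3.0e-06). NGEF, the exchange factor ephexin that binds EPHA4, fell in both. It went from 38.6 and 50.9 CPM to 3.25 and 1.76 CPM in HepG2S3 (edgeR adjusted p = 3.5e-04) and from 88.5 and 91.3 CPM to 18.4 and 18.1 CPM in HCC4006ER (edgeR adjusted p = 1.3e-04). VAV3, an exchange factor recruited to activated receptors, rose in HCC4006ER from 0.428 and 0.154 CPM to 4.81 and 4.06 CPM (edgeR adjusted p = 3.4e-04) and fell in HepG2S3 from 23.3 and 13.7 CPM to 6.90 and 8.94 CPM (edgeR adjusted p = 0.00854). RHBDL2, a rhomboid protease that cleaves ephrin-B3, fell in HCC4006ER from 17 and 8.21 CPM to 1.57 and 2.41 CPM (edgeR adjusted p = 0.00122). It also fell in HepG2S3, from 1.20 and 1.69 CPM to 0.281 and 0.424 CPM (edgeR adjusted p = 0.00389). GRIP2, a PDZ scaffold of ephrin-B, was called lower in HepG2S3 on 14 and 43 counts in HepG2 against 3 and 0 counts (edgeR adjusted p = 0.0168). ADAM10, the protease that sheds ephrins, fell in both fits, with log2 fold changes of -0.70 and -0.81 (edgeR adjusted p = 0.00784 and 0.0137), and was named after its values were seen.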

How the data were processed

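RNA was measured in 21 libraries. The authors deposited HTSeq counts of reads per Ensembl gene, not normalized; the submitters' notes and methods name Bowtie, TopHat or STAR, SAMtools and hg19. The labels give a KAPA stranded kit for all 21 libraries, and the methods name QuantSeq as well. The strand setting of the counting is not given in the sources used here. Rows that name no gene, 28.0 to 42.8% of each library, were left out. Of 53515 genes, 45100 (84.3%) matched GENCODE on GRCh37.

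CPM used the total count on genes and replicate libraries were averaged. For log2 fold changes 1 CPM was added to each level. Counting intervals are 95% Wilson, or exact for ratios, and cover counting error only, as PCR reads without molecular identifiers are not independent. Floors are 3 counts.

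Resistant lines were paired with the parental line given in the study. HepG2S3 against HepG2 and HCC4006ER against HCC4006P1 (genes before the missing stretch) were tested with edgeR 4.0.16 (quasi-likelihood, TMM, filterByExpr, Benjamini-Hochberg adjusted p under 0.05), as were 7 resistant against 7 parental summed profiles with the parental line as a block and without HCC4006P1 replicate 1. Scripts were tested on simulated data. Alternatives were DESeq2 1.42.0, other filters, a pseudocount of 0.1 CPM, TMM library sizes, a replicate block and each replicate library left out.

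Members and lists were chosen with earlier results of these data known. Named were all Eph receptors and ephrins, up to 4 called signaling genes by size of change in each fit, and for each member the 1 most correlated gene among those with at least 5 CPM in 3 lines. R 4.3.3 and Python 3.11.15 were used.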

Additional observations from a re-analysis of the deposited data

Results flagged for a closer look

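Receptors that moved in opposite directions in different pairs were listed where both changes passed 2-fold and neither counting interval nor any pairing of libraries reached 0. The difference between the pairs was not tested for these receptors, which were selected on the same values. EPHA7 had a log2 fold change of 8.87 in IGROV-1/CDDP and of -5.63 in PancB1Q. EPHB1 had 1.70 in PancB1V and -2.46 in HepG2S1. EPHB2 had 3.68 in HepG2S1 and -1.33 in PancB1V.

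For the ligands the difference between the pairs was tested with edgeR. The log2 fold change in HCC4006ER minus that in HepG2S3 was 2.56 for EFNA1, 6.36 for EFNA2, -4.21 for EFNA3, -7.99 for EFNB2 and 4.83 for EFNB3. All 5 passed an adjusted p under 0.05 in this fit, where 55.9% of all genes tested were called. The difference for EFNA5 passed as well, with no size given since HepG2 had 0 counts. EFNA3 and EFNB2 rose in HepG2S3 and fell in HCC4006ER, while EFNA1 fell in HepG2S3 and did not pass the test in HCC4006ER. EFNA2 fell in HepG2S3 and could not be tested in HCC4006ER alone, and EFNB3 could not be tested in HepG2S3 alone and did not pass in HCC4006ER. The sizes of the differences for EFNA2 and EFNB3 are uncertain, as both genes had few counts in HepG2S3. The liver markers, which summed to 21600 CPM in HepG2 and 15.2 CPM in HepG2S3, moved with the first pair, and their part in the ligand changes was not tested. The replicated groups have 2 libraries each, so no single library could be checked as an outlier.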

How the results depend on the processing

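Over all alternatives run, the numbers of receptor changes past 2-fold, 18 higher and 16 lower, stayed within 1.5 times. Each of these 34 changes kept its sign with a pseudocount of 0.1 CPM, with TMM library sizes and with each replicate library left out. Leaving out a replicate library gave 18 higher and 15 to 16 lower. Single crossings of the threshold were EPHB6 in PancB1Q (1.46 with a pseudocount of 0.1 CPM, 1.04 with TMM), EPHB3 in HCC827GR (-1.67) and U10 (-1.11) and EPHA4 in U100 (1.62) with the smaller pseudocount, and with TMM EPHB4 in HepG2S3 (-1.11), EPHB2 in PancB1Q (-0.83) and EPHB2 in IGROV-1/CDDP (-0.95).

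Of all list genes tested, ephrins included, 9 rose and 16 fell in HepG2S3 and 9 rose and 9 fell in HCC4006ER. With 1 replicate library left out, where the lone library is assumed to vary like the other group, these came to 4 to 12 and 13 to 17 in HepG2S3 and to 6 to 12 and 8 to 11 in HCC4006ER, with 5 and 4 higher in HepG2S3 without its own replicate 1 or 2. Genes called in all ran from 7341 to 13242 in HepG2S3 and from 4046 (without HCC4006ER replicate 1) to 8370 in HCC4006ER. No called ephrin and no signaling gene named by size of change lost its call in these fits. ADAM10 was not followed through them. Keeping all genes in the HCC4006ER fit gave 5 list genes higher and 3417 genes in all, where genes without counts in HCC4006P1 replicate 1 enter the estimate of the spread. Over 7 parental lines DESeq2 called 106 genes against 0 with edgeR; the cause was not tested. In that fit EFNA2 came to 0.52, EFNA5 to -0.53, KALRN to 0.20 and SRC to 0.05 without HepG2 and its derived lines, and EFNA5 to -0.04 with HCC4006P1 replicate 1 kept, all opposite in sign to the uncalled main values. EFNA1 in HCC4006ER ranged from -0.02 without HCC4006P1 replicate 2 to 0.65 without replicate 1.

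The labels do not say that a replicate number marks a shared batch, a second label gives both HepG2 libraries 1 number, and same-numbered deviations correlated by 0.0111 (HepG2 pair) and 0.249 (HCC4006 pair). With the replicate number as a block, 10561 genes were called in HepG2S3 and 7787 in HCC4006ER, and list genes came to 9 higher and 15 lower and to 11 higher and 10 lower. EFNB3 in HCC4006ER passed with the block (0.91, edgeR adjusted p = 2.14e-05). Depth limits the receptors under 1 CPM, whose changes rest on a few counts.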
